A study of Mus musculus with 5 samples.

Results

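The genes described here encode the BCL-2 family, the proteins that decide at the mitochondrial outer membrane whether a cell lives or dies. The family was taken as a list of 10 genes by symbol, and 9 of them were analysed here, out of 19937 genes measured. Each gene was read from the 1 probe set annotated with its symbol alone, and no member had a second such probe set. The list was not chosen on the values described below, although earlier results of the same arrays were known when it was made.

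The study asked how gene expression in CD4 T cells of the mouse colon depends on calcineurin B, the regulatory subunit of the phosphatase calcineurin, which switches on the NFAT family when a T cell meets antigen. Cells positive for CD45, CD3 and CD4 and low for CD44 had been sorted from the colonic lamina propria, the tissue layer under the gut epithelium. The conditional group (CD4cre/Cnb1flox) carried floxed Cnb1 (current symbol Ppp3r1) and a CD4-driven Cre recombinase. The control group is labelled both control WT and CD4neg/Cnb1flox. The second name gives a floxed Cnb1 without the Cre, in which case both groups carried the floxed allele, and the labels do not say more of the WT name. Such a Cre is active from the CD4 CD8 double-positive stage of the thymus onward, so the conditional cells matured with the Cre present. There were 3 conditional and 2 control arrays. The labels used here give neither strain nor age, nor say whether an array held RNA of 1 mouse or several. A p-value below thus reflects only how far these 5 samples vary, a variation that may be technical.

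Members of the family fall into 3 roles. Guardians (Bcl2, Bcl2l1 and Mcl1 here) hold death signals in check by binding the other members through a surface groove. Effectors such as Bak1 oligomerise and open the outer membrane, which releases cytochrome c and starts the caspases. BH3-only proteins (Bcl2l11, Bid, Bad, Bbc3 and Pmaip1 here) carry the stress signals, either by occupying the guardians or by acting on the effectors. In T cells, interleukin-7 maintains Bcl2, costimulation through CD28 raises the long form of Bcl2l1, Mcl1 is needed at nearly every stage, and Bcl2l11 (BIM) removes self-reactive thymocytes and effector cells after a response.

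Upstream sequence is shown for 3 members whose conditional and control values did not overlap, Bcl2l1, Mcl1 and Bcl2l11. Each line gives the 250 bases before a RefSeq transcription start (GRCm38.p6), 5′ to 3′ in the direction of the gene. Capitals mark GGAAA or its reverse complement TTTCC, the core that NFAT factors bind, or GTAAACA or its reverse complement, a core that FOXO factors bind.
Bcl2l1 start 1 (chr2:152831729-152831978, minus strand): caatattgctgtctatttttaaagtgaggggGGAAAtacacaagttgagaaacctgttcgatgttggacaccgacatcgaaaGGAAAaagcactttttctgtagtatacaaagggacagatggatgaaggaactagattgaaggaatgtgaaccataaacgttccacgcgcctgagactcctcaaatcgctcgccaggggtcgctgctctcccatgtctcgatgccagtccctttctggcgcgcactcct
Bcl2l1 start 2 (chr2:152830718-152830967, minus strand): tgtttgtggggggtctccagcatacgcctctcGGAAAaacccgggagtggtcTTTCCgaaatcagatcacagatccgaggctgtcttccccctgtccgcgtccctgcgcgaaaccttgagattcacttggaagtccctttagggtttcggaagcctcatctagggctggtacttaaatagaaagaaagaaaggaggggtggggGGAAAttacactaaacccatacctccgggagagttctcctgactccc
Bcl2l1 start 3 (chr2:152828490-152828739, minus strand): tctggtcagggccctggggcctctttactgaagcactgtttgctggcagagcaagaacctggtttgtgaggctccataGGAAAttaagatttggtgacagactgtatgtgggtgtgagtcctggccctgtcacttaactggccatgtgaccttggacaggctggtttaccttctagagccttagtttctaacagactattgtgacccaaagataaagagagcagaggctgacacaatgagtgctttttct
Mcl1 single start (chr3:95658471-95658720, plus strand): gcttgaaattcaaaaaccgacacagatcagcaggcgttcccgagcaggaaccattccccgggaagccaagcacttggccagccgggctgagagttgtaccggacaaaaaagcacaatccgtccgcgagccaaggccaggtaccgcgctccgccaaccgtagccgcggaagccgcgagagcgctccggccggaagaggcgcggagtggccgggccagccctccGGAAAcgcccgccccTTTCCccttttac
Bcl2l11 start 1 (chr2:128125788-128126037, plus strand): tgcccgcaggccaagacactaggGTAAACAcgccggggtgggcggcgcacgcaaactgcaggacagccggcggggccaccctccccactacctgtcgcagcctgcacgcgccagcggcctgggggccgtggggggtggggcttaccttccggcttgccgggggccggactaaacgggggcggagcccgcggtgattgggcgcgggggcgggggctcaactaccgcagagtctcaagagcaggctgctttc
Bcl2l11 start 2 (chr2:128127325-128127574, plus strand): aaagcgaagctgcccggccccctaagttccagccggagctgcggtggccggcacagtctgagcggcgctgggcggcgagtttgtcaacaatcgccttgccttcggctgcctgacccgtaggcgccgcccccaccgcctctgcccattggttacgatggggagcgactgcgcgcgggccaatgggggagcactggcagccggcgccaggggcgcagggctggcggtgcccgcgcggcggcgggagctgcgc

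Starts are numbered in the order of the table. The 3 starts of Bcl2l1 held 2, 3 and 1 copies of the NFAT core, Mcl1 held 2, and the starts of Bcl2l11 held 0. Start 1 of Bcl2l11 held 1 FOXO core, as did 1 of the 3 starts of Bbc3. The STAT motif TTCNNNGAA, which reads the same on both strands and can share bases with GGAAA, occurred in 0 of the 14 starts of the 8 members found in the promoter table (all but Pmaip1). Over all 32851 such windows, 55.6% held the NFAT core, 7.02% the STAT motif and 3.17% the FOXO core, against 10, 0 and 2 of the 14 member windows. These matches describe letters in short windows and say nothing of binding.

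Values are log2 RMA signals, and the median signal per array was 7.12 to 7.23. Control replicate 1 stood apart from the other arrays. Its summed linear signal of 13 T cell markers was 5851, against 36382 in control replicate 2 and 29797 to 35211 in the conditional arrays, with Cd3e at 9.45 against 12.21 and 11.61 to 11.88, and Cd4 at 9.26 against 11.83 and 11.44 to 11.86. Its summed signal of 15 epithelial markers was 22825, against 7630 and 3706 to 4905, and of 12 stromal and endothelial markers 34220, against 13754 and 7522 to 14907. Control replicate 2 differed from the conditional arrays too. All conditional values lay below both controls in 10 of the 15 epithelial markers and above both in 0, against 13.1% and 17.4% of all genes. No marker was at 0, a value that log2 RMA signals do not reach. Each member is therefore given against each control separately. In such bulk samples, fewer cells of a type and less RNA per cell cannot be told apart. The targeted gene, Ppp3r1, read 8.64, 8.83 and 8.77 in the conditional arrays and 8.99 and 8.60 in the controls. Whether its probe set lies within the deleted exons is not given in the sources used here, so this level does not check the deletion.

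**Figure D1:**
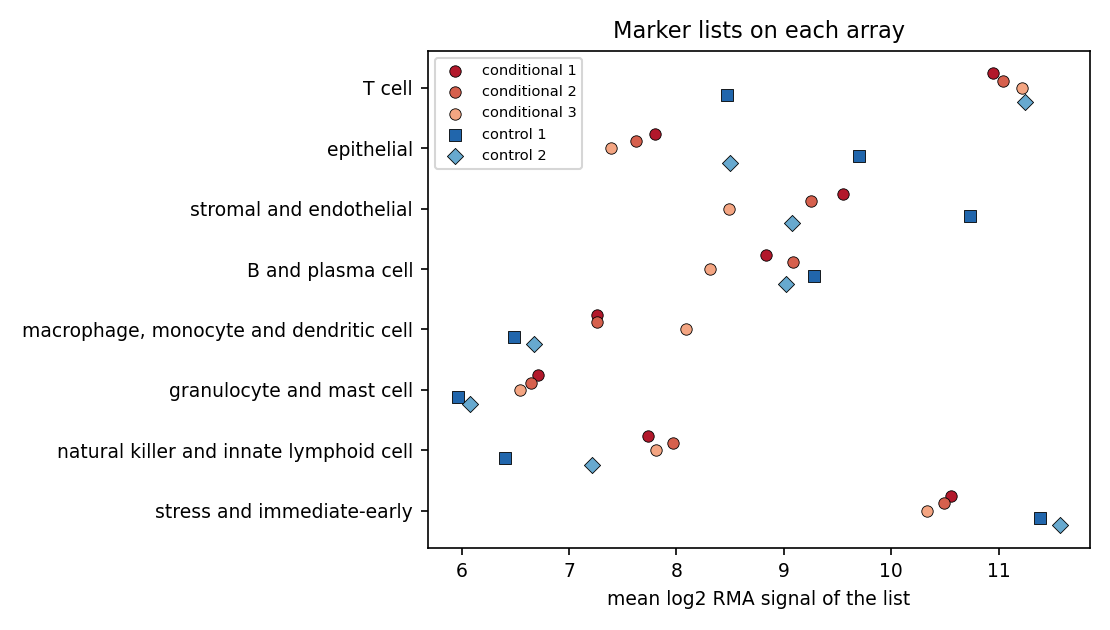
Mean log2 RMA signal (x axis) of 8 marker lists (y axis), 1 point per array, circles for conditional and squares or diamonds for the control arrays. Control replicate 1 is lowest for T cell markers, at 8.47 against 10.95 to 11.25 elsewhere, and highest for epithelial markers, at 9.70.

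None of the 9 members passed an adjusted p of 0.05 (limma, adjusted over all genes). At an unadjusted p of 0.05 in limma there were 4, namely Bcl2l1, Bcl2l11 and Bak1 with higher values in conditional cells and Mcl1 with lower ones. Over all genes, 0.416% (83 genes) passed the adjusted and 14.5% the unadjusted threshold. The 83 depended on single arrays, with 0 passing without any 1 of the conditional arrays (1417 to 2037 at an unadjusted p of 0.05 in limma), 1217 without control replicate 1 and 5474 without control replicate 2. The conditional and control values did not overlap in 5 of the 9 members, 3 of them higher in the conditional arrays and 2 lower. The same was so for 30.5% of all genes, 17.4% higher and 13.1% lower. The median difference of the 9 members was 0.058, beside 0.029 over all genes, with 5 members above 0 and 4 below.

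**Figure D2:**
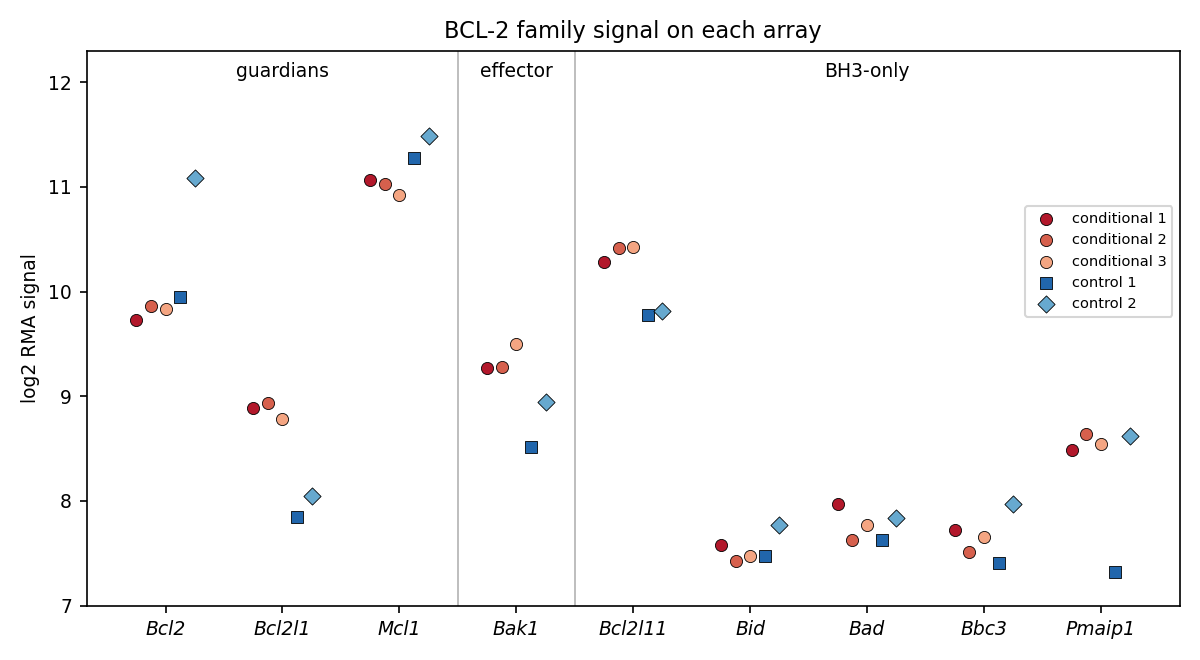
Log2 RMA signal (y axis) of the 9 members (x axis, grouped by role) on each array, with circles for the 3 conditional arrays and a square and a diamond for control replicates 1 and 2. Bcl2l1, Bcl2l11 and Bak1 lie above both controls on every conditional array, Mcl1 and Bcl2 lie below both, and the controls are far apart for Bcl2 and Pmaip1.

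Among the guardians, Bcl2l1 was higher and Mcl1 and Bcl2 were lower in the conditional arrays, although none passed the test over all genes. Bcl2l1, which encodes BCL-XL, read 8.89, 8.93 and 8.78 in conditional replicates 1, 2 and 3 and 7.85 and 8.05 in control replicates 1 and 2. Every conditional value lay above both controls, with a gap of 0.73 between the groups, wider than the range within either (0.16 and 0.20). Bcl2l1 differed by 0.92 ± 0.121 (SE, adjusted p = 0.0672 in limma), or 1.89-fold with a 95% confidence interval from 1.52 to 2.34. Control replicate 1 alone gave 1.02 and control replicate 2 alone 0.82. The difference was thus similar against the control array poor in T cell markers and the one rich in them. The part of T cell content in it was not tested. With 1 control left out Bcl2l1 passed the test, at an adjusted p of 0.0259 without control replicate 1 and 0.00380 without control replicate 2 (limma, range over all alternatives 0.00380 to 0.403). In those fits 6.1% and 27.5% of all genes passed too, and the lone control was assumed to vary like the conditional arrays. The gene also gives rise to a short, death-promoting splice form, and 1 probe set does not separate the forms.

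Mcl1 encodes a guardian whose mRNA and protein turn over quickly. It read 11.07, 11.03 and 10.92 in the conditional arrays and 11.28 and 11.49 in the controls. All 3 conditional values were below both controls, by a gap of 0.21, about the size of the control range of 0.21. Mcl1 differed by -0.38 ± 0.121 (SE, adjusted p = 0.266 in limma; 95% interval -0.685 to -0.068). Control replicate 1 alone gave -0.27 and control replicate 2 alone -0.48. Mcl1 passed in no alternative. After median centring it differed by -0.28, at an unadjusted p of 0.129 in limma.

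Bcl2, the founding guardian, read 9.73, 9.86 and 9.84 in the conditional arrays, 9.95 in control replicate 1 and 11.08 in control replicate 2. The conditional arrays lay within 0.13 of each other, and the controls were 1.13 apart. The groups did not overlap, but the gap was only 0.084, set by control replicate 1. Bcl2 differed by -0.70 ± 0.341 (SE, adjusted p = 0.433 in limma; 95% interval -1.58 to 0.17). Without control replicate 1 its adjusted p was 0.00813. Control replicate 1 alone gave -0.14 and control replicate 2 alone gave -1.27, so its size rested on which control was used. With the mean of the T cell markers as a covariate the difference was -1.20 (limma, adjusted p = 0.00591, range over the alternatives 0.00591 to 0.865). In that fit 7.8% of all genes passed, and the covariate mainly sets control replicate 1 apart from the other arrays.

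Bcl2 and Mcl1 were lower on the same arrays as a list of heat shock and immediate-early genes, known to be induced when tissue is dissociated. Fos, an AP-1 subunit, and Hspb1, a small heat shock protein, fell by 1.56 and 2.50 on the log2 scale (adjusted p = 0.0448 and 0.0496 in limma), and both were chosen after their values were seen. Of 15 such genes, 13 had all conditional values below both controls, as 13.1% of all genes did. Their summed linear signal was 25455 to 28966 in the conditional arrays and 47969 and 60296 in control replicates 1 and 2, and none was at 0. Neither their part in the values of Bcl2 and Mcl1 nor the cause of their own differences was tested.

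Bcl2l1 is also expressed by myeloid cells, whose markers were brighter on the conditional arrays. The summed linear signal of 13 macrophage, monocyte and dendritic cell markers, Lyz2 and Cd14 among the brightest, was 2645 to 6070 there and 1403 and 1652 in the controls, and that of 12 granulocyte and mast cell markers was 2004 to 2192 against 983 and 1001. All 13 markers of the first list had differences above 0, as did 55.9% of all genes, and no signal was at 0. Of these 13, 8, 7 and 5 lay below the array median in conditional replicates 1, 2 and 3, and 10 and 12 in the controls. The sum of 6070 was that of conditional replicate 3, with 2645 and 2893 in conditional replicates 1 and 2. In the second list 11 were above 0 and 1 below. Its sum leaned on its brightest gene, Kit, at 9.87 to 9.91 in the conditional arrays and 8.15 and 7.28 in the controls. Of its 12 markers, 8 or 9 lay below the array median on the conditional arrays and 11 and 10 on the controls. The part of myeloid cells in the values of Bcl2l1, and of Bcl2a1c below, was not tested.

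The effector Bak1 was higher in the conditional arrays. It read 9.27, 9.28 and 9.50 there and 8.51 and 8.95 in the controls. The lowest conditional value was 0.32 above the higher control, less than the 0.44 between the controls. Bak1 differed by 0.62 ± 0.174 (SE, adjusted p = 0.217 in limma), or 1.54-fold (95% interval 1.13 to 2.09). Control replicate 1 gave 0.84 and control replicate 2 gave 0.40. Bak1 passed in no alternative that kept both controls (limma, adjusted p 0.118 to 0.728).

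Of the BH3-only genes, Bcl2l11 was the 1 of 5 whose groups did not overlap. Its product BIM binds every guardian. Bcl2l11 read 10.28, 10.41 and 10.43 in the conditional arrays and 9.775 and 9.82 in the controls. All conditional values lay above both controls, with a gap of 0.47 where the conditional range was 0.15 and the control range 0.041. Bcl2l11 differed by 0.58 ± 0.107 (SE, adjusted p = 0.115 in limma), or 1.49-fold (95% interval 1.24 to 1.81). Control replicate 1 gave 0.60 and control replicate 2 gave 0.56, the closest pair of single-control values among the 5 members whose groups did not overlap. Among the alternatives that kept both controls, Bcl2l11 passed only with the T cell covariate (limma, adjusted p = 0.0492, range 0.0492 to 0.690). In that fit 7.8% of all genes passed, and the covariate mainly sets control replicate 1 apart from the other arrays.

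Pmaip1, which encodes NOXA, a ligand mainly of MCL1, split the controls. It read 8.48, 8.64 and 8.55 in the conditional arrays, 8.62 in control replicate 2 and 7.32 in control replicate 1. Control replicate 2 lay among the conditional arrays and control replicate 1 was low, as it was for T cell markers. Pmaip1 differed by 0.59 ± 0.385 (SE, adjusted p = 0.558 in limma), with 1.23 against control replicate 1 and -0.062 against control replicate 2. Pmaip1 passed in no alternative that kept both controls (limma, adjusted p 0.430 to 0.964). With the mean of the T cell markers as a covariate the difference was 0.025, at the upper end of that range. That covariate mainly sets control replicate 1 apart, so the fit gives nearly the difference against control replicate 2 alone. The part of T cell content in the values of Pmaip1 was not tested.

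Bid, Bad and Bbc3 overlapped between the groups. Their signals lay above the array medians on every array, and no call against background was available. Bid, which caspase-8 cleaves to link death receptors to mitochondria, read 7.58, 7.42 and 7.48 in the conditional arrays and 7.48 and 7.77 in the controls. Bad, which phosphorylation by survival kinases inactivates and which calcineurin can dephosphorylate, read 7.97, 7.63 and 7.77 against 7.62 and 7.84. Bbc3, which encodes PUMA and is a target of p53 and FOXO3, read 7.72, 7.51 and 7.65 against 7.41 and 7.97. For Bid and Bbc3 control replicate 2 was the highest of all arrays, and for Bad it was second to conditional replicate 1.

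Their differences were -0.13 for Bid (95% interval -0.48 to 0.21), 0.058 for Bad (-0.33 to 0.44) and -0.061 for Bbc3 (-0.56 to 0.44). All 3 had the opposite sign against control replicate 1 and control replicate 2, and Bbc3 was also above 0 after median centring or repeated quantile normalization. The intervals allow differences of up to 0.48, 0.44 and 0.56 in size. Phosphorylation and cleavage, by which Bad and Bid are switched, are not read by an mRNA array.

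**Figure D3:**
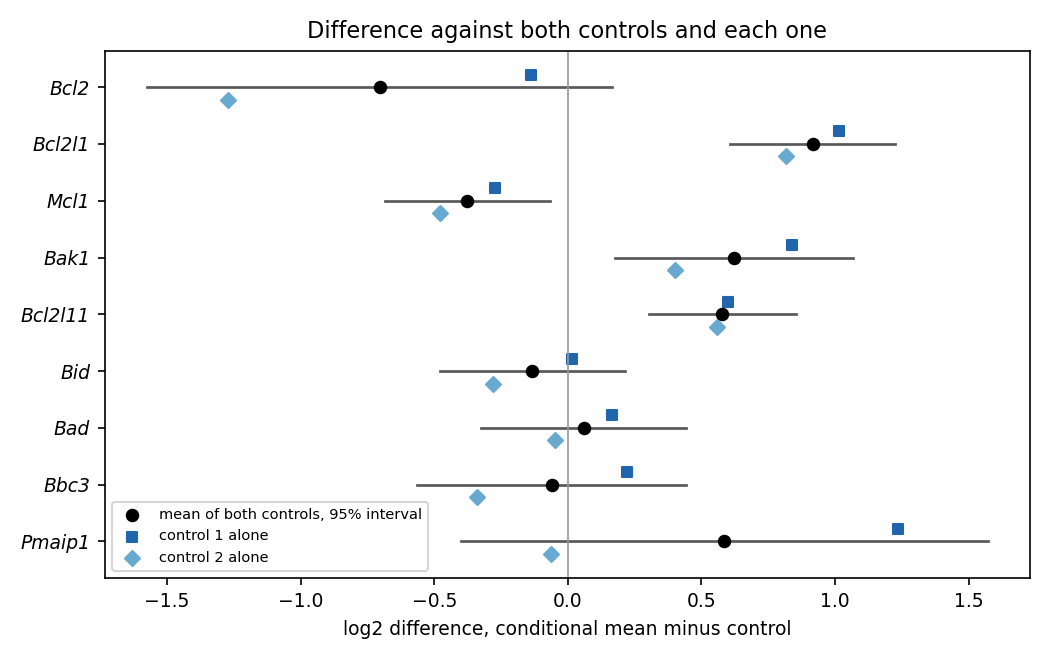
Log2 difference of the conditional mean (x axis) for each member (y axis), against the mean of both controls (black, with the limma 95% interval) and against control replicate 1 (square) and control replicate 2 (diamond) alone. Bcl2l1, Bcl2l11, Bak1 and Mcl1 keep the same side of 0 with intervals that leave 0 out, whereas Bcl2 runs from -0.14 to -1.27 and Pmaip1 from 1.23 to -0.062.

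Guardians act in balance with the BH3-only proteins they bind, and pairs of members were therefore also set against each other within each array. These pairs were chosen after the values were seen and are given without a test. The difference between 2 probe sets has no meaning by itself, and only its change between arrays is read. Bcl2 minus Bcl2l11 was -0.55, -0.55 and -0.59 in the conditional arrays and 0.17 and 1.27 in the controls. Mcl1 minus Bcl2l11 was 0.79, 0.61 and 0.50 in the conditional arrays and 1.50 and 1.67 in the controls. For both pairs the conditional arrays lay below both controls, by 1.28 and 0.96 on average.

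Bcl2l1 minus Bcl2l11 went the other way. It was -1.39, -1.48 and -1.65 in the conditional arrays and -1.92 and -1.76 in the controls, a change of 0.34. Mcl1 minus Pmaip1 was 2.59, 2.39 and 2.37 in the conditional arrays and 3.96 and 2.87 in the controls, with the change 1.51 against control replicate 1 and 0.42 against control replicate 2 in size. Relative to Bcl2l11, the signal of Bcl2 and Mcl1 was thus lower in the conditional arrays and that of Bcl2l1 higher. The mean changes of the pairs follow from the differences of the single members given above and are no separate result.

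**Figure D4:**
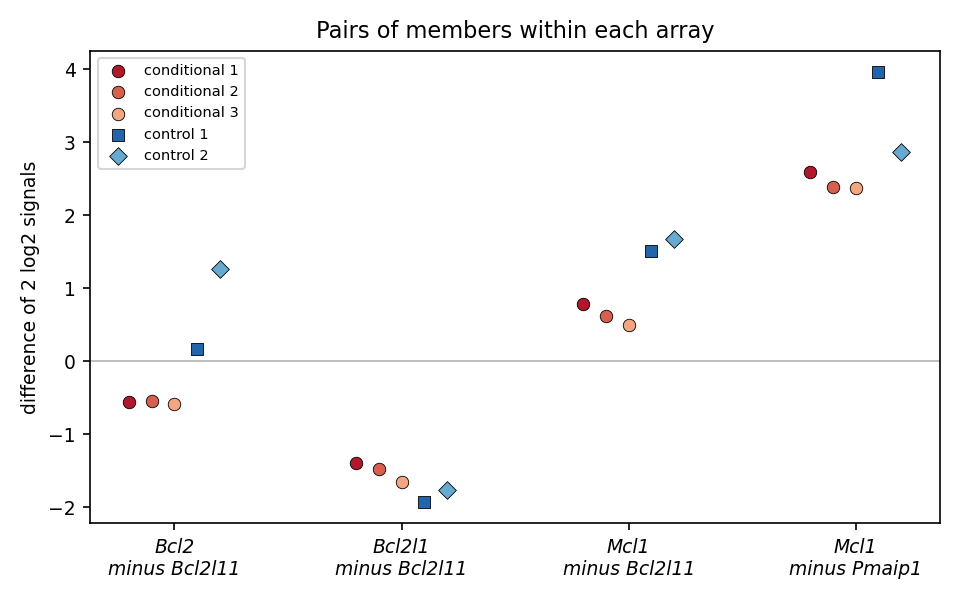
Difference between the log2 signals of 2 members on the same array (y axis) for 4 pairs (x axis), with circles for conditional and a square and a diamond for control replicates 1 and 2. The conditional arrays lie below both controls for Bcl2 minus Bcl2l11, Mcl1 minus Bcl2l11 and Mcl1 minus Pmaip1, and above both for Bcl2l1 minus Bcl2l11.

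Across the 5 arrays, the genes whose centred log2 values were most like those of Bcl2l1, the member with the smallest p, were Mefv, Lpcat1 and Hilpda. Their root mean square differences from it were 0.025, 0.048 and 0.059 on the log2 scale. Mefv encodes pyrin, Lpcat1 a phospholipid acyltransferase and Hilpda a lipid droplet protein. For Pmaip1, the member whose controls differed most, the nearest were H2-Q4, a class I histocompatibility gene (0.035), Coro2a, a coronin gene (0.050), and Eml5 (0.053). With 5 arrays many genes follow any given pattern, and these names are a description.

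The wider apoptosis pathway was read from 6 lists with 73 genes measured, of which 1 passed the test over all genes, as did 0.416% of all genes. That gene was Apaf1, which encodes the scaffold that cytochrome c assembles into the apoptosome, the platform that activates caspase-9. It read 10.26, 10.40 and 10.56 in the conditional arrays and 8.66 and 8.69 in the controls. Apaf1 rose by 1.73 ± 0.129 (SE, limma, adjusted p = 0.0285), or 3.32-fold, with 1.75 against control replicate 1 and 1.72 against control replicate 2. Without conditional replicate 1, 2 or 3 its adjusted p was 0.157, 0.303 and 0.186 (limma), and with array weights or the replicate number as a block 0.103 and 0.0758, with differences between 1.66 and 1.83 in all alternatives (adjusted p 0.00176 to 0.303).

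In the list of apoptosome and caspase genes Apaf1 was the single call. Of the 16 measured, 1 passed as higher and 0 as lower, and the median difference was 0.11. An unadjusted p under 0.05 in limma was found for 3, against 14.5% of all genes. Birc2, an inhibitor of apoptosis gene, differed by 1.11 (adjusted p = 0.169), Dffb, the nuclease that cuts DNA in dying cells, by 0.46 (adjusted p = 0.156) and Birc3, a relative of Birc2, by 0.47 (adjusted p = 0.395). Casp9, which the apoptosome activates, was at -0.035, and Cycs, the cytochrome c gene, at 0.16. Against control replicate 2 alone Birc2 was at 0.72 and Birc3 at 0.15, and against control replicate 1 alone at 1.50 and 0.79. These 5 genes were chosen after their values were seen. Control replicate 1 gave a list median of 0.070 and control replicate 2 one of 0.091.

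Among 14 other BCL-2 family genes, 0 passed the adjusted threshold and 3 an unadjusted p of 0.05 (limma), all higher, against 14.5% of all genes. The middle difference of the 14 came to -0.0029, with 0.060 for control replicate 1 alone and -0.037 for control replicate 2 alone. Bcl2a1c, of the A1 guardian group, read 9.55, 9.81 and 9.86 in the conditional arrays and 7.75 and 8.51 in the controls, a difference of 1.61 (adjusted p = 0.0909). Bcl2a1c belongs to a set of near-identical copies, and probe sets annotated to several of them were left out, so its signal may come from any copy. Bik, a BH3-only gene, differed by 0.83 (adjusted p = 0.147), Becn1, an autophagy gene with a BH3 domain, by 0.40 (adjusted p = 0.228) and Bcl2l12 by -0.27 (adjusted p = 0.359). In 4 of the 14 the conditional values were all higher and in 2 all lower, as in 17.4% and 13.1% of all genes.

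For receptors and signalling genes of survival cytokines, the difference from the mean of both controls was above 0 in 12 of 12 genes, as in 55.9% of all genes. Against control replicate 1 alone it was above 0 in 10 of the 12 and against control replicate 2 alone in 9. The median was 0.77 beside 0.029 over all genes. None passed the adjusted threshold and 6 an unadjusted p of 0.05 (limma), against 14.5% of all genes. Stat5b and Stat5a, which carry signals of the common gamma chain receptors and raise guardian genes, differed by 1.16 (adjusted p = 0.0938) and 1.14 (adjusted p = 0.119). Pim1, a survival kinase, differed by 0.76 (adjusted p = 0.130) and Il2rb, an interleukin-2 and interleukin-15 receptor chain, by 1.44 (adjusted p = 0.236). Control replicate 1 gave a list median of 1.46, and control replicate 2 gave 0.64. Il2rb was at 2.17 and 0.72 against the same controls. T cell markers were low in control replicate 1, and with their mean as a covariate Stat5b, Stat5a, Pim1 and Il2rb differed by 0.92, 0.85, 0.59 and 0.81. That covariate mainly sets control replicate 1 apart, and against control replicate 2 alone the 4 genes were at 0.88, 0.80, 0.56 and 0.72. The part of T cell content in these differences was not tested.

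The list of death receptors, their ligands and genes that signal inside the cell below them held 13 genes. Its median was 0.16, with control replicate 1 alone giving 0.72 and control replicate 2 alone 0.068. There were 0 past the adjusted threshold and 5 at an unadjusted p of 0.05 (limma, 3 higher and 2 lower), against 14.5% of all genes. Tnfrsf1b, a tumour necrosis factor receptor, differed by 1.12 (adjusted p = 0.175), Tnfsf10, the ligand TRAIL, by 1.09 (adjusted p = 0.221) and Tnf by 1.40 (adjusted p = 0.282). All 3 were larger against control replicate 1, at 1.56, 1.59 and 2.17, than against control replicate 2, at 0.68, 0.59 and 0.63. Tnfrsf10b, the TRAIL receptor, went the opposite way at -0.99 (adjusted p = 0.275), with -1.51 against control replicate 2 and -0.48 against control replicate 1.

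The p53 and FOXO genes had a median of 0.082 over 12 genes (0.11 against control replicate 1 and 0.051 against control replicate 2). Of these, 0 passed the adjusted threshold and 3 an unadjusted p of 0.05 (limma), against 14.5% of all genes. Foxo3, an activator of Bcl2l11 and Bbc3, differed by -0.46 (adjusted p = 0.194). Ccng1, a p53 target, differed by 0.31 (adjusted p = 0.324), Zmat3 by 0.47 (adjusted p = 0.327) and Mdm2, the ligase that degrades p53, by 0.37 (adjusted p = 0.347). Zmat3 was at 0.27 and 0.67 against control replicates 1 and 2, and Mdm2 at 0.54 and 0.20.

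Genes that control the turnover of MCL1 protein had a median of 0.13 over 6 genes. Of these, 0 passed the adjusted threshold and 1 an unadjusted p of 0.05 (limma), against 14.5% of all genes. Fbxw7, whose ubiquitin ligase marks MCL1 for degradation, differed by 0.72 (adjusted p = 0.106), with 0.72 and 0.71 against control replicates 1 and 2. Usp13 differed by -0.91 (adjusted p = 0.487), with -1.77 against control replicate 1 and -0.050 against control replicate 2. Usp9x, a deubiquitinase of MCL1, differed by 0.13 (adjusted p = 0.613) and Gsk3b, a kinase that primes MCL1 for degradation, by 0.16 (adjusted p = 0.619).

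**Figure D5:**
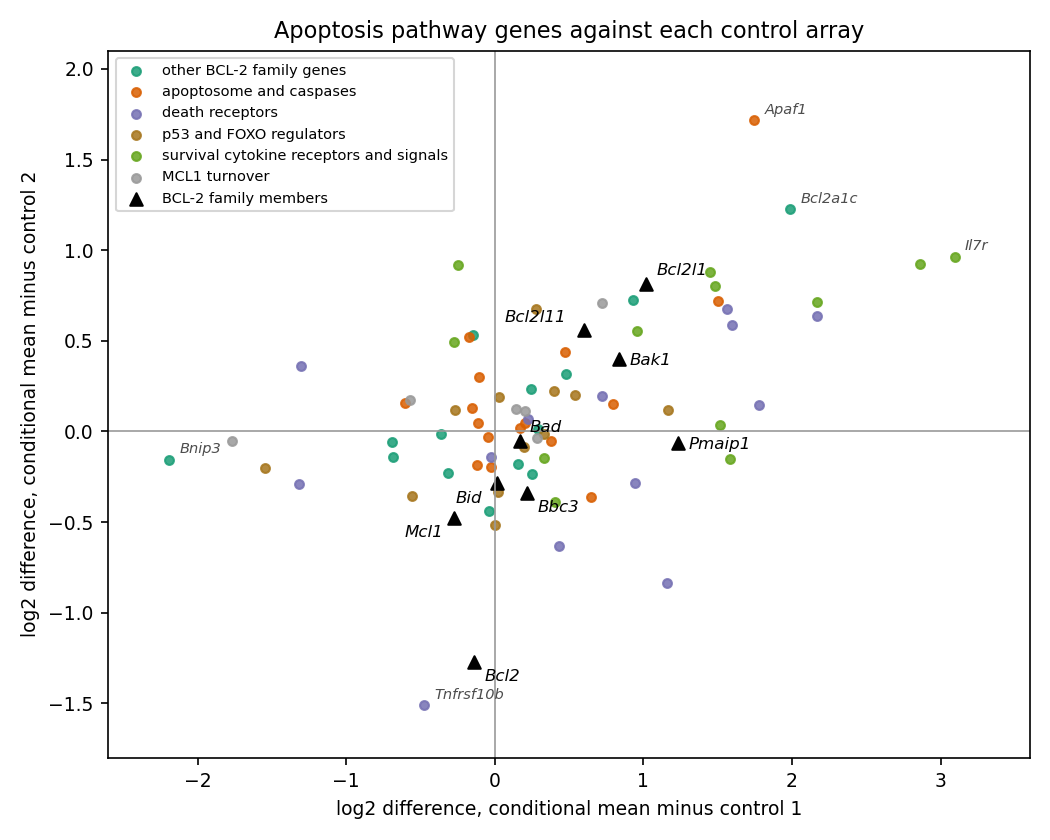
Log2 difference of the conditional mean against control replicate 1 (x axis) and control replicate 2 (y axis) for the 9 members (triangles) and 73 other pathway genes (circles, coloured by list). Apaf1 (1.75 and 1.72), Bcl2l1 (1.02 and 0.82) and Bcl2l11 (0.60 and 0.56) lie near the diagonal, whereas Il7r (3.09 and 0.96) and Bcl2 (-0.14 and -1.27) lie far from it (Il7r was chosen after its value was seen). Both axes share the conditional arrays.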

How the data were processed

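RNA of sorted mouse CD4 T cells was measured on 5 Affymetrix whole-transcript arrays. The authors deposited log2 signals per probe set. The submitters' processing notes name RMA and the oligo package, with no version or build. RMA normalizes all arrays together, which removes global shifts and compresses differences of dim genes. Precision is limited by the number of arrays.

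Of 34760 probe sets, 21640 carried 1 gene symbol in an older platform annotation, 1321 several and 11799 none listed there. Of the single symbols, 21553 matched RefSeq gene numbers and 0 needed updating. Each of 19937 genes took its probe set with the highest mean. 1 listed family gene is not reported here.

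Conditional and control arrays were compared across all genes with limma 3.58.1 in R 4.3.3 (lmFit, eBayes, no covariate), with Benjamini-Hochberg adjustment, a threshold of 0.05 and 3 residual degrees of freedom plus 2.10 from the prior. The procedure was tested on simulated data. Members, lists and tests were chosen with earlier results of these data known. The rule named all members, pathway list genes that passed (in lists with none, the 4 of smallest p), Ppp3r1, Cd3e, Cd4, up to 3 of the brightest genes of a marker list, and the 3 genes most similar to 2 of the members. Other genes are marked in the text as chosen after their values were seen. Promoter sequences are from RefSeq. Alternatives were filters on dim genes, renormalization, probe set means, a variance trend, array weights, a replicate block, a T cell covariate and each array left out.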

Additional observations from a re-analysis of the deposited data

How the results depend on the processing

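In 109 of 126 recomputed differences of members (14 alternatives for each of 9), the direction and the side of the threshold were kept. The filters on dim genes, the probe set means and the variance trend leave a member's difference as it was. With these the direction could not change, and only the side of the threshold was open. The replicate block gave the same member differences as leaving out conditional replicate 3. The count of 109 thus overstates how far directions were put to a test. Directions reversed in 8. Bbc3 was at 0.013 after repeated quantile normalization, 0.033 after median centring and ran from -0.34 to 0.22 with single arrays left out, Bad was at -0.031 without conditional replicate 1, -0.029 with the T cell covariate and between -0.050 and 0.17 with single arrays left out. The same range was -0.28 to 0.015 for Bid and -0.062 to 1.23 for Pmaip1. The other 9 passed the threshold only without a control array or with the T cell covariate. Members past the threshold numbered 0 to 4 when single arrays were left out: 2 without control replicate 1 (Bcl2 and Bcl2l1), 4 without control replicate 2 (Bcl2l1, Bcl2l11, Bak1 and Pmaip1) and 0 without any 1 conditional array (limma, with 2 or 3 at an unadjusted p of 0.05). They numbered 3 with the T cell covariate (Bcl2, Bcl2l1 and Bcl2l11), where 7.8% of all genes passed too. Every fit with a member past the threshold also had more genes past it than the 83 of the main fit (counts in the next paragraph). A lone control is assumed to vary like the conditional arrays.

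All genes past the threshold numbered 48 after repeated quantile normalization, 13 with array weights, 1555 with the T cell covariate and 0 to 5474 with single arrays left out: 0 without any 1 conditional array (limma, 1417 to 2037 at an unadjusted p of 0.05), 1217 without control replicate 1 and 5474 without control replicate 2. Pathway genes past it numbered 0 with array weights, 0 with the replicate block, 15 with the T cell covariate and 0 to 36 with single arrays left out, 11 without control replicate 1 and 36 without control replicate 2. With the replicate block, 69 genes and 0 members passed, and Bcl2l1 differed by 0.96 (limma, adjusted p = 0.331); the deviations of same-numbered arrays correlated at 0.40 for replicate 1 and -0.29 for replicate 2, so the numbers were not taken to pair the arrays. The members' median difference ran from -0.062 to 0.22, each less than the spread of 0.22 between arrays away from the reported 0.058. The cause was not tested. The values used here carry no call of signal over background.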
